A study of Mus musculus with 20 samples.

Results

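In E14 mouse embryonic stem cells, which are pluripotent, 3 transcripts were described: uc009hcn.2, uc009jsd.1 and uc008rwe.2. They are among the 7605 transcripts listed for all 3 ribosome captures of the series, and they were chosen by their capture-over-total footprint ratios, which stood higher in the RPL10A capture than in the RPS25 and RPL22 captures. The ratios and levels given below come from the same 12 libraries, so they are a description and carry no test. All 3 were also listed among the 8084 transcripts of the RNA-seq arm, which took no part in naming them.

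The series has 10 groups with 2 libraries each, 20 in all. Ribosome profiling (Ribo-Seq), which sequences the mRNA fragments that ribosomes shield from RNase, was done in lines whose own Rpl10a, Rps25 or Rpl22 gene was tagged on 1 allele (3xFLAG-Rpl10a, Rps25-3xFLAG or Rpl22-3xHA). Ribosomes pulled down by the tag (capture) stand beside all ribosomes of the same line's lysate, pelleted through sucrose (total). Anti-FLAG beads served for RPL10A and RPS25 and an antibody to HA for RPL22, and the labels of the total libraries of the Rpl22 line name that antibody too, although their titles call them total. RNA-seq of polysome gradients covered wild-type cells given an siRNA against Rpl10a or a control siRNA, each split into a heavy pool, with at least 4 ribosomes per mRNA, and a light pool of all other fractions, which includes polysomes of 2 to 3 ribosomes. All cells received cycloheximide, which arrests elongating ribosomes, at 100 µg/ml for 1 min before harvest. Each tagged line keeps an untagged allele, the labels do not say whether a line is 1 clone, and nothing says that replicates came from separate cultures: p-values then cover the spread between these samples alone, which may be technical.

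RPL10A is a protein of the large ribosomal subunit and forms part of its L1 stalk, a mobile arm beside the site where spent tRNA leaves. RPS25 lies on the small subunit and RPL22 on the large one. An mRNA whose footprints are more frequent in a capture than in total ribosomes is over-represented on ribosomes that carry the tagged protein, and an mRNA found mainly in light gradient fractions carries few ribosomes per molecule.

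Identifiers were given without gene names, and 0 of 9498 matched the reference tables at hand. The 3 transcripts are therefore given by identifier, with no gene, position, function or sequence, and neither pluripotency markers nor the level of Rpl10a under its siRNA were checked. Replicate libraries correlated with Pearson r from 0.973 to 0.995 on log2 values. Read depth is unknown, since the files hold scaled values and not counts. Footprints are in RPKM, which corrects for transcript length and library size, so these levels may be set beside each other between transcripts, whereas the RNA-seq values carry no length correction.

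Footprints of uc009hcn.2 were higher in the RPL10A capture and lower in the RPS25 capture than in the matching totals. In the 3xFLAG-Rpl10a line it had 17.3 and 17.5 RPKM in the capture, against 4.4 and 5.1 RPKM in total ribosomes. In the Rps25-3xFLAG line it had 0.6 and 2.3 RPKM in the capture, against 5.2 and 7.3 RPKM in total ribosomes. Neither pair of groups overlapped, and their order was opposite between the lines.

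The RPL22 capture of uc009hcn.2 gave no clear direction: its libraries stood at 14.2 and 5.4 RPKM, on either side of the total libraries of that line at 9.8 and 8.2 RPKM. In means, the RPL10A capture held 17.4 ± 0.141 RPKM and its total 4.75 ± 0.495 RPKM (SD, n = 2 each), which is a 3.66-fold higher level. That total is itself low, with 4.17% of the 8505 transcripts lower in it. The log2 ratio of capture to total, taken on log2(RPKM + 1), was 1.68 (SE 0.23) for RPL10A, −1.64 (SE 0.42) for RPS25 and −0.02 (SE 0.33) for RPL22. A higher RPL10A ratio was found in 28 of 8505 transcripts, and a lower RPS25 ratio in 9 of 8779. The RPS25 place rests on a capture mean of 1.45 RPKM near the floor, with 0.0342% of transcripts lower in that capture. Ordered by mean, its footprint levels ran from the RPL10A capture through the RPL22 capture, the RPL22 total, the RPS25 total and the RPL10A total to the RPS25 capture, and of these neighbours only the RPL22 capture and RPL22 total overlapped.

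Transcript uc009jsd.1 was the most densely footprinted of the 3 in each group. It had 74.8 and 86 RPKM in the RPL10A capture, against 19.4 and 19.9 RPKM in the total of that line. In the Rps25-3xFLAG line the capture held 39.2 and 27.3 RPKM, against 21.9 and 23 RPKM in total ribosomes. The RPL22 capture held 129.7 and 117.2 RPKM, against 82.8 and 108.8 RPKM in its total. Capture libraries were thus above total libraries in all 3 lines with no overlap, and the lines differed in how far apart the groups lay.

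Its RPL10A capture averaged 80.4 ± 7.92 RPKM and its total 19.65 ± 0.354 RPKM (SD, n = 2 each), a 4.09-fold higher level with a log2 ratio of 1.98 (SE 0.18), at place 16 from the top of 8505. The log2 ratio was 0.52 (SE 0.20) for RPS25 and 0.37 (SE 0.13) for RPL22. The RPS25 ratio was 0.27 without the first and 0.78 without the second capture library, and the RPL22 ratio 0.18 without the first and 0.57 without the second total library. The highest footprint level of uc009jsd.1 was nevertheless in the RPL22 capture, and the RPL22 total overlapped the RPL10A capture. Ordered by mean, its levels ran from the RPL22 capture through the RPL22 total, the RPL10A capture, the RPS25 capture and the RPS25 total to the RPL10A total, with no overlap between the other neighbours. Each line has its own table with its own normalization, so levels set across lines are descriptions.

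Transcript uc008rwe.2 was sparsely footprinted, and its high RPL10A ratio went with a low total. It had 5.8 and 6.2 RPKM in the RPL10A capture, against 1.6 and 1.9 RPKM in the total of that line. The RPS25 capture held 6.1 and 4.7 RPKM, against 5.4 and 5.8 RPKM in its total. The RPL22 capture held 6.2 and 6 RPKM, against 8.1 and 5.9 RPKM in its total. Capture and total overlapped in the Rps25 and Rpl22 lines, and of the 6 groups only the total of the 3xFLAG-Rpl10a line stood apart from its neighbour in level.

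The RPL10A capture of uc008rwe.2 averaged 6 ± 0.283 RPKM and its total 1.75 ± 0.212 RPKM (SD, n = 2 each), a 3.43-fold higher level. Its log2 ratio was 1.35 (SE 0.32) for RPL10A, −0.05 (SE 0.25) for RPS25 and −0.16 (SE 0.18) for RPL22. The RPL10A ratio of this transcript depends on the pseudocount, since 1 is large beside 1.75 RPKM. It was 0.70 with a pseudocount of 5, and 1.73 with 0.1, which was chosen after seeing the data. That total lies near the floor, with 0.247% of the 8505 transcripts lower, so neither the ratio nor the fold is precise.

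**Figure D1:**
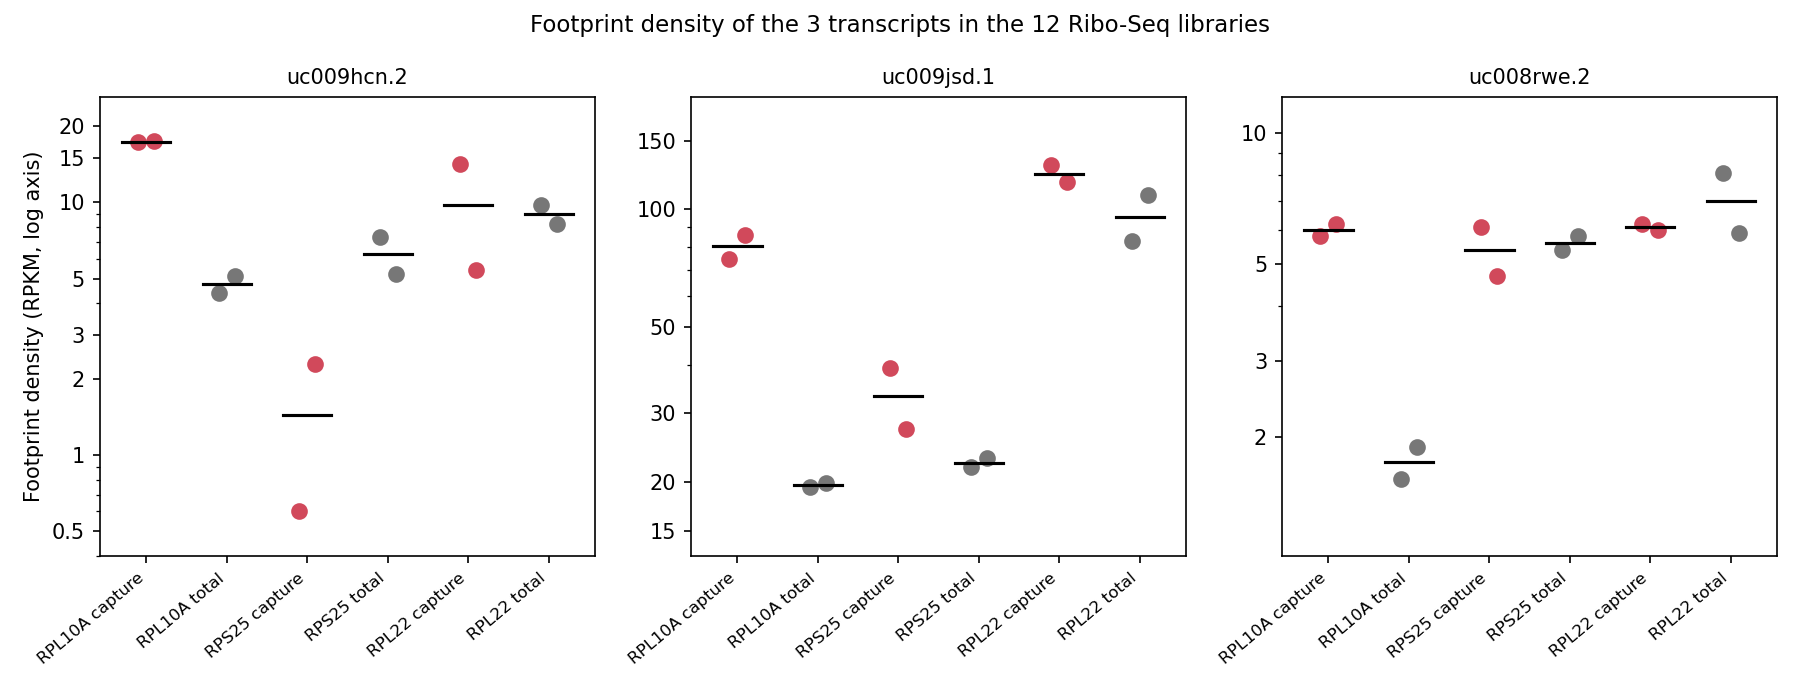
Footprint density in RPKM (log axis, its own range in each panel) of the 3 transcripts, with 1 point per library and a bar at the mean of each group; red points are capture libraries and grey points total libraries. uc009hcn.2 is high in the RPL10A capture and low in the RPS25 capture, uc009jsd.1 has captures above totals in every line, and uc008rwe.2 lies near 6 RPKM except in the total of the 3xFLAG-Rpl10a line, at 1.75 RPKM.

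Counted over the set, both RPL10A capture libraries lay above both total libraries for 3 of 3 transcripts, a pattern that 28% of the 8505 transcripts in that table had, and below for none (28.7%). In the RPS25 capture, 1 of 3 was above (27.9% of 8779 transcripts), 1 was below (25.9%) and 1 overlapped. In the RPL22 capture, 1 was above (21.5% of 8588 transcripts), none was below (31.4%) and 2 overlapped. Nothing is read from these counts, because the ratios behind them named the members.

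Between lines, the RPL10A ratio of uc009hcn.2 exceeded its RPS25 ratio by 3.32 on the log2 scale (SE 0.55), more than in any other of the 7605 common transcripts, and its RPL22 ratio by 1.70 (SE 0.55). For uc009jsd.1 the differences were 1.45 from RPS25 and 1.60 from RPL22 (SE 0.25 for both), and for uc008rwe.2 they were 1.40 and 1.51 (SE 0.29 for both). Taking for each transcript the smaller of both differences, the members stood at places 2, 4 and 5 of 7605, with values of 1.70, 1.45 and 1.40. The RPL10A minus RPL22 difference of uc009hcn.2, which sets its place, was 2.32 without the first RPL22 capture library and 1.07 without the second. In 35.8% of the common transcripts the RPL10A ratio was above both other ratios. These values are those by which the members were named, so they describe the set without supporting it.

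**Figure D2:**
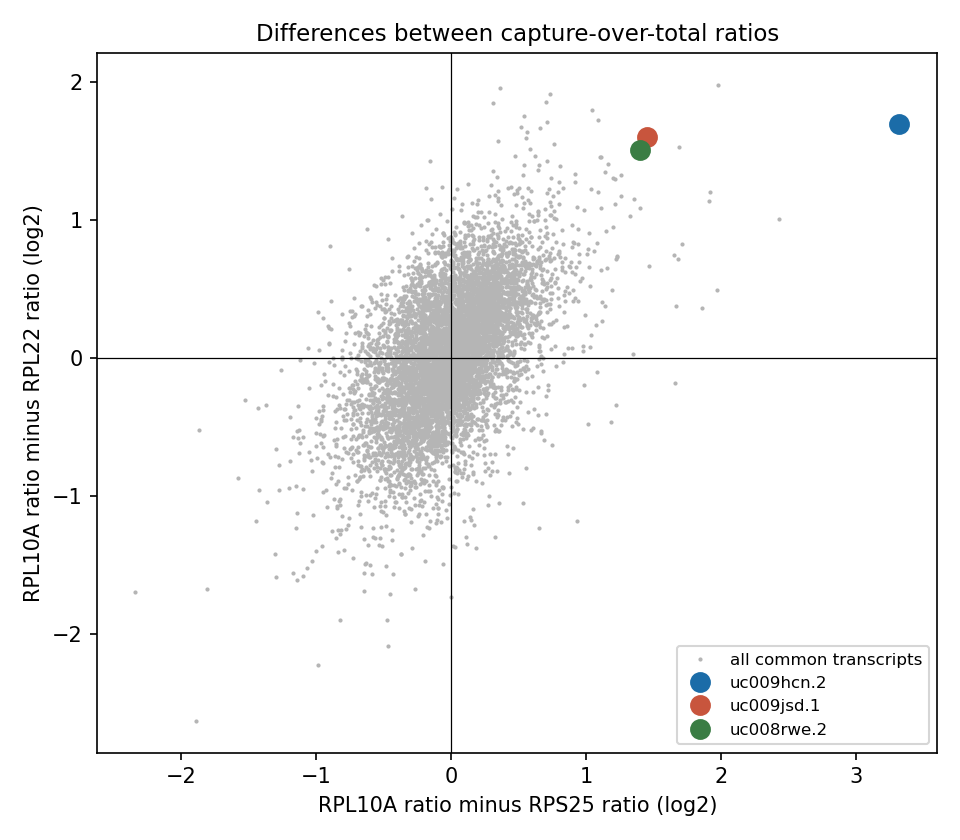
Each point is 1 of the 7605 common transcripts, with the RPL10A ratio minus the RPS25 ratio on the horizontal axis and the RPL10A ratio minus the RPL22 ratio on the vertical axis, both on the log2 scale. The 3 members, in colour, lie at the upper right, with uc009hcn.2 farthest right at 3.32.

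The same kind of difference was made up in unlike ways in the 3 transcripts. A difference of ratios is the difference between captures minus the difference between totals, and for uc009hcn.2 against the Rps25-3xFLAG line these were 3.00 and −0.32 (log2, SE 0.39 for both). For uc009jsd.1 against the Rps25-3xFLAG line they were 1.27 and −0.18 (SE 0.18 for both). For uc008rwe.2 they were 0.14 and −1.26 (SE 0.21 for both), so its captures stood at like levels while its totals differed.

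Against the Rpl22-3xHA line, the totals of the 3xFLAG-Rpl10a line were lower for all 3 transcripts. Both totals are denominators of the ratios that named the members, so nothing is read from this count. Of the 7605 transcripts, 637 had a lower difference between these totals than uc009hcn.2, 21 than uc009jsd.1 and 91 than uc008rwe.2. The captures of uc009jsd.1 differed by −0.61 and its totals by −2.22 (SE 0.18 for both), so it was lower in both kinds of library of the 3xFLAG-Rpl10a line. The captures of uc008rwe.2 differed by −0.02 and its totals by −1.53 (SE 0.21 for both). Those of uc009hcn.2 differed by 0.90 and its totals by −0.80 (SE 0.39 for both). Over all 7605 transcripts, the median difference between totals was 0.02 against the Rps25 line (5th to 95th percentile −0.40 to 0.44). Against the Rpl22 line it was 0.03 (−0.99 to 1.04), and differences between captures spanned −0.89 to 0.99 there. The 3 capture differences against the Rpl22 line and the total difference of uc009hcn.2 lay within these spans. Against the Rps25 line, 9 transcripts had a lower total difference than uc008rwe.2. Antibody, buffer, read processing (STAR was noted for the Rpl22 libraries), line and deposit differ together between the Rpl22 line and the other lines and cannot be told apart.

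**Figure D3:**
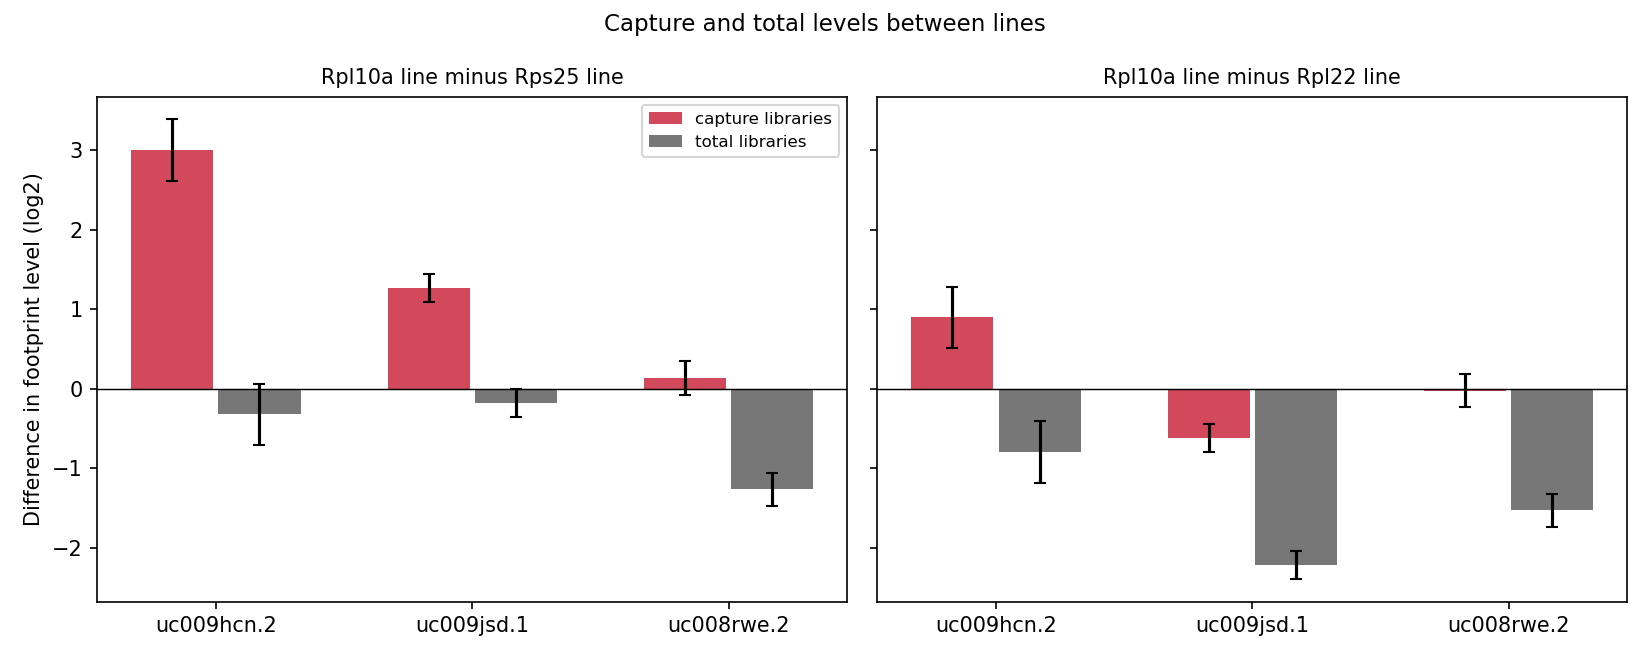
Difference in footprint level (log2, mean with SE from the fit of 12 libraries) between the 3xFLAG-Rpl10a line and the Rps25-3xFLAG line (left) or the Rpl22-3xHA line (right), for capture libraries (red) and total libraries (grey). The bars of uc008rwe.2 differ from 0 mainly in the totals (−1.26 and −1.53), and those of uc009hcn.2 against the Rps25-3xFLAG line mainly in the captures (3.00).

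The RNA-seq arm, which is independent of the capture ratios, first compares the relative level of each mRNA between the heavy and light pools. Each library is scaled on its own, so these levels do not give the share of an mRNA's molecules in a pool. Under both siRNAs uc009hcn.2 was lower in the heavy pool than in the light pool. With Rpl10a siRNA it had 4.1 and 8.3 in the heavy pool, against 18.4 and 19.3 in the light pool (deposited RPM values). With control siRNA it had 6.7 and 8.8 in the heavy pool, against 30.5 and 35.1 in the light pool. The pools did not overlap under either siRNA.

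The heavy level of uc009hcn.2 was 0.329 times its light level with Rpl10a siRNA (log2 difference −1.53, SE 0.27, limma adjusted p = 0.00215) and 0.236 times with control siRNA (log2 difference −1.96, SE 0.27, limma adjusted p = 0.000434). With control siRNA, 128 of 8084 transcripts had a lower heavy-against-light difference. As a call this is common: 22.1% of transcripts were lower in the heavy pool with Rpl10a siRNA and 26.4% with control siRNA at an adjusted p below 0.05, and 17% under both. It was 1 of the 3 members called lower, and none was called higher (31.6% of transcripts with Rpl10a siRNA and 28% with control siRNA).

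Transcript uc009jsd.1 stood somewhat above the middle of all transcripts in this respect. A lower heavy-against-light difference was found in 65.6% of them with Rpl10a siRNA and in 64.3% with control siRNA. With Rpl10a siRNA it had 29.2 and 24.8 in the heavy pool, against 26.2 and 15.4 in the light pool, and the pools overlapped. With control siRNA it had 44.6 and 50.1 in the heavy pool, against 38.8 and 40.3 in the light pool, and the pools did not overlap. The log2 differences were 0.40 (95% interval −0.11 to 0.91, limma adjusted p = 0.158) and 0.25 (95% interval −0.26 to 0.76, limma adjusted p = 0.368).

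Transcript uc008rwe.2 had lower values in the heavy pool without passing the threshold in the fit that takes no libraries as pairs. With libraries of the same number fitted as a block, it passed (limma adjusted p = 0.000344 with control siRNA and 0.000483 with Rpl10a siRNA). The labels do not say what a number stands for. With Rpl10a siRNA it had 5.5 and 10.2 in the heavy pool, against 11.2 and 17.3 in the light pool. With control siRNA it had 2.8 and 4.4 in the heavy pool, against 6.1 and 8.1 in the light pool. The pools did not overlap under either siRNA, and the log2 differences were −0.81 (95% interval −1.55 to −0.07, limma adjusted p = 0.0635) and −0.83 (95% interval −1.57 to −0.08, limma adjusted p = 0.0588).

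**Figure D4:**
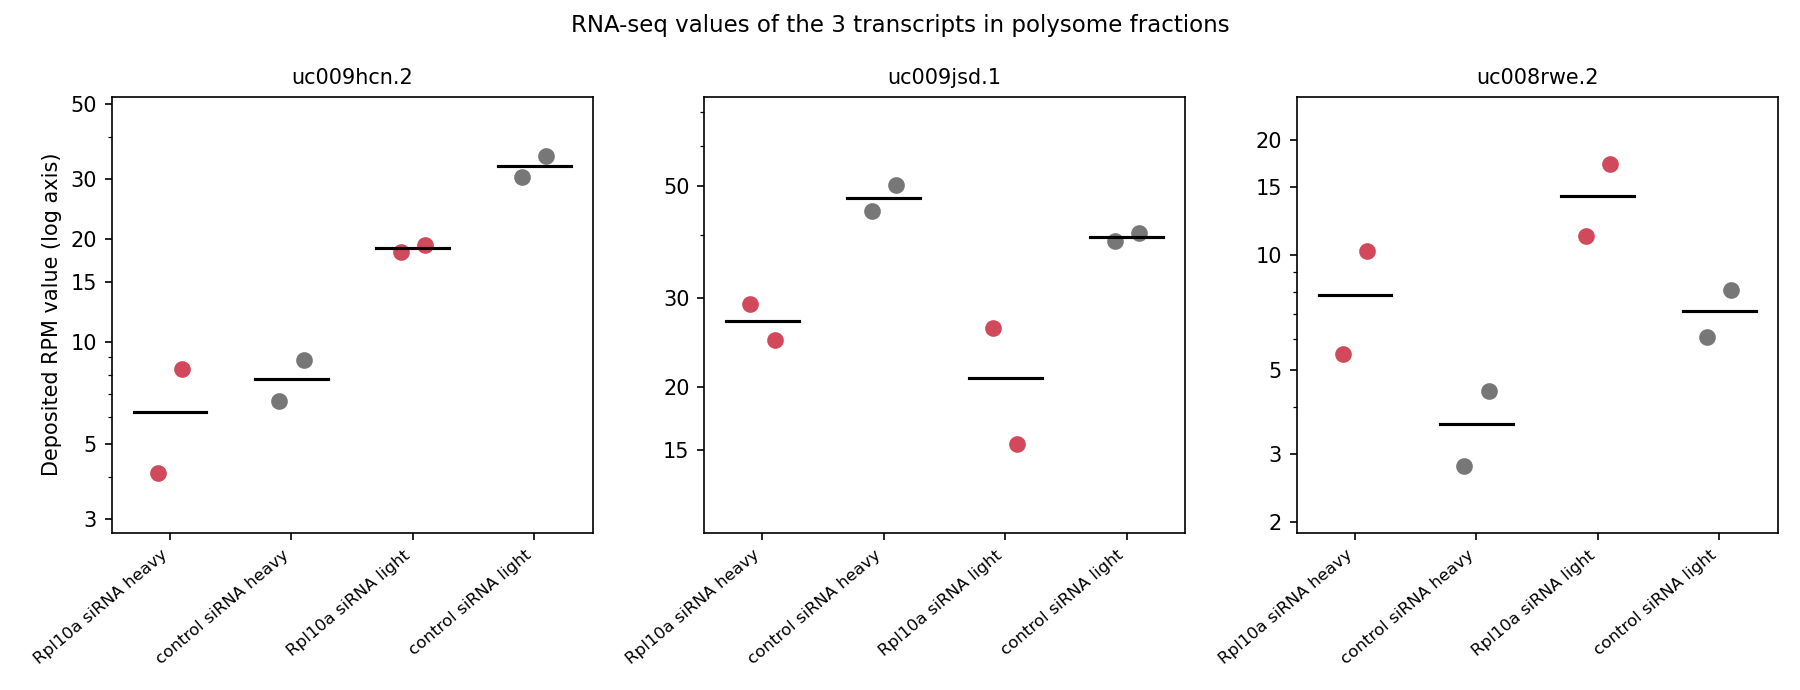
RNA-seq values (deposited RPM values, log axis, its own range in each panel) of the 3 transcripts in the heavy and light pools, with Rpl10a siRNA in red and control siRNA in grey; each point is a library and each bar a group mean. uc009hcn.2 is highest in the light pools, uc009jsd.1 is lower with Rpl10a siRNA in both pools and uc008rwe.2 is higher with it in both.

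The knockdown comparison asks how each mRNA changed in either pool when Rpl10a was targeted, and here the 3 transcripts did not move together. The level of uc009jsd.1 fell in both pools. In the heavy pool it averaged 27 ± 3.11 with Rpl10a siRNA and 47.35 ± 3.89 with control siRNA (deposited RPM values, SD, n = 2 each). In the light pool it averaged 20.8 ± 7.64 with Rpl10a siRNA and 39.55 ± 1.06 with control siRNA. The siRNA groups did not overlap in either pool.

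On the log2 scale uc009jsd.1 fell by 0.79 in the heavy pool (SE 0.22, limma adjusted p = 0.0201) and fell by 0.94 in the light pool (SE 0.22, limma adjusted p = 0.0479). Of all transcripts, 22.7% were called lower in the heavy pool, 3.61% in the light pool and 2.62% in both, and 31 of 8084 transcripts had a lower difference in the light pool. The heavy call was lost without the second control heavy library (adjusted p = 0.112) or the second Rpl10a siRNA heavy library (adjusted p = 0.0698). The light call was lost with library totals made equal (limma adjusted p = 0.0610) or without a variance trend (adjusted p = 0.0566). It was also lost in a fit of the 4 light libraries (limma adjusted p = 0.0646). The same held without any 1 of the 4 control libraries or without the second Rpl10a siRNA light library. The difference was −0.58 without that Rpl10a siRNA library, and −0.97 or −0.91 without the first or second control light library. Without either of those control light libraries or the first control heavy library, light-pool calls of other transcripts were lost as well.

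The level of uc008rwe.2 was higher with Rpl10a siRNA in the heavy pool, at 7.85 ± 3.32, against 3.6 ± 1.13 with control siRNA (deposited RPM values, SD, n = 2 each). In the light pool it stood at 14.25 ± 4.31 with Rpl10a siRNA and 7.1 ± 1.41 with control siRNA. The groups did not overlap in either pool. Its control siRNA levels lie near the floor, with 1.76% of transcripts lower in the heavy pool and 4.70% in the light pool. The log2 difference was 0.91 in the heavy pool (SE 0.32, limma adjusted p = 0.0454), where 26.8% of transcripts were called higher, and 0.89 in the light pool (SE 0.32, limma adjusted p = 0.129), where 2.51% were. The heavy call lies at the threshold: it was lost without any 1 of the 4 control libraries, with a pseudocount of 5, with library medians aligned and in a fit of the 4 heavy libraries (adjusted p = 0.0594), and without the second Rpl10a siRNA heavy library the difference was 0.52 (adjusted p = 0.224).

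For uc009hcn.2 the heavy pools overlapped, at 4.1 and 8.3 with Rpl10a siRNA and 6.7 and 8.8 with control siRNA (log2 difference −0.33, 95% interval −0.95 to 0.28, limma adjusted p = 0.323). The light pools did not overlap, with means of 18.85 ± 0.636 under Rpl10a siRNA and 32.8 ± 3.25 under control siRNA (SD, n = 2 each; log2 difference −0.76, SE 0.27, limma adjusted p = 0.122). The threshold was passed in a fit of the 4 light libraries alone (adjusted p = 0.0339). The heavy-pool change of uc009hcn.2 rested on single libraries: without the second Rpl10a siRNA heavy library it passed the threshold (−0.77, limma adjusted p = 0.0180), and without the first it was 0.10 (limma adjusted p = 0.726). In the heavy pool 1 of the 3 members was called lower, beside 22.7% of all transcripts, 1 was called higher, beside 26.8%, and 1 neither. In the light pool 1 was called lower, beside 3.61% of all transcripts, and none higher, beside 2.51%.

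Scaling bears on these directions. Making library totals equal or aligning library medians moved the median change of all transcripts in the heavy pool from 0.01 to 0.12 or to −0.12. The heavy-pool change of uc009jsd.1 was then −0.68 (limma adjusted p = 0.0471) or −0.92 (limma adjusted p = 0.00986). That of uc008rwe.2 was 1.00 (limma adjusted p = 0.0277) or 0.78, where the call was lost (limma adjusted p = 0.0715). The balance of calls moved with scaling: in the heavy pool 2164 transcripts were called higher and 1836 lower as deposited, 2454 and 1243 with equal totals, and 1687 and 2473 with medians aligned. In the light pool 203 were called higher and 292 lower as deposited, and 356 and 241 with equal totals. Values are relative to the other transcripts of a library, and in lysates of many cells a transcript in fewer cells cannot be told apart from less of it per cell.

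No polysome shift, which is the heavy-against-light difference with Rpl10a siRNA minus that with control siRNA, was called for the 3 transcripts. The log2 shift was 0.43 for uc009hcn.2 (95% interval −0.45 to 1.31, limma adjusted p = 0.472), 0.15 for uc009jsd.1 (−0.57 to 0.87, limma adjusted p = 0.768) and 0.02 for uc008rwe.2 (−1.03 to 1.07, limma adjusted p = 0.980). The median over all transcripts was 0.09, and 2.86% were called toward heavy and 3.57% toward light, which is 231 and 289 transcripts, against 112 and 412 with medians aligned. The unadjusted p-values of the members were 0.293, 0.645 and 0.968. With single libraries left out, the shift ran from −0.0034 to 0.86 for uc009hcn.2, from −0.21 to 0.52 for uc009jsd.1 and from −0.37 to 0.41 for uc008rwe.2, with none called; both ends for uc009hcn.2 and uc008rwe.2 came from leaving out a Rpl10a siRNA heavy library, and both for uc009jsd.1 from leaving out a Rpl10a siRNA light library. The intervals include changes of 1 on the log2 scale for uc009hcn.2 and uc008rwe.2, so shifts of that size were not excluded by these libraries.

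**Figure D5:**
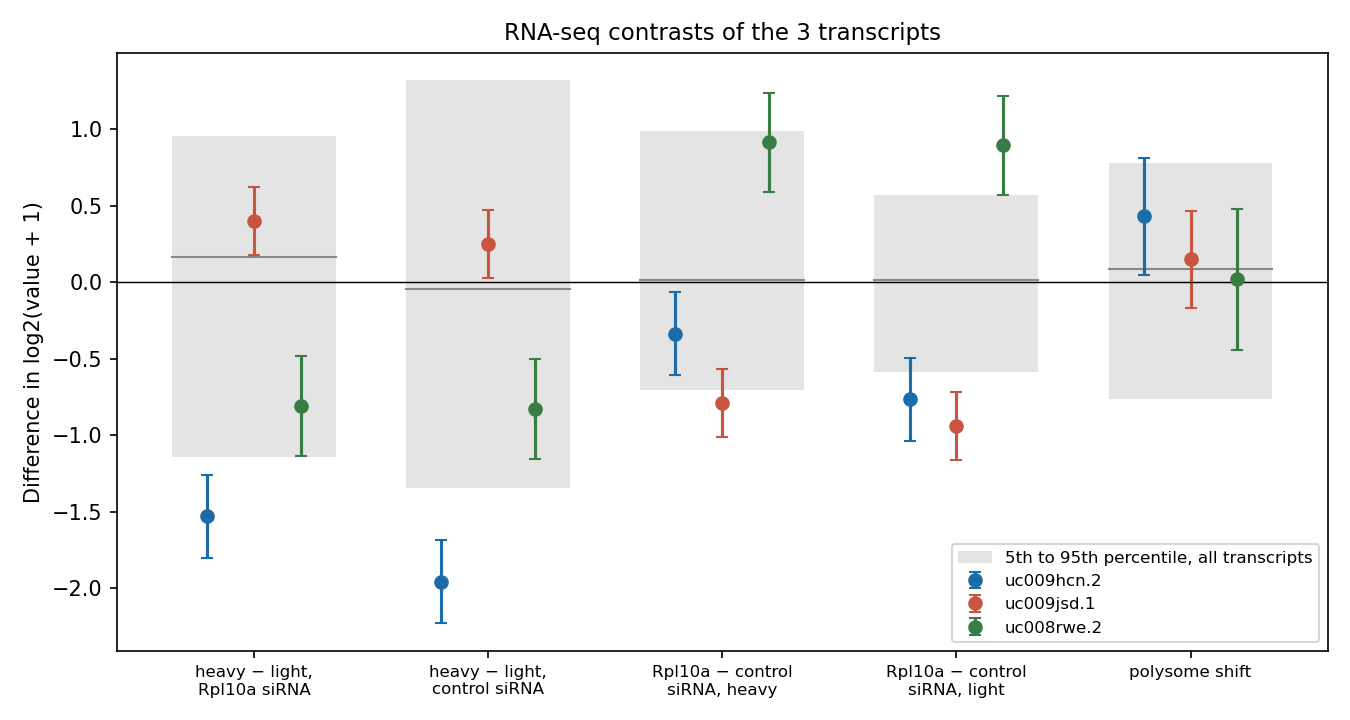
Log2 differences of the 3 transcripts in the 5 RNA-seq contrasts (points, with SE from the limma fit of 8 libraries), over the span from the 5th to the 95th percentile of all 8084 transcripts (grey) and their median (grey line). uc009hcn.2 lies below that span in both heavy-against-light contrasts and in the light-pool change, uc009jsd.1 lies below it in both siRNA changes and uc008rwe.2 above it in the light-pool change.

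The 3 transcripts did not share 1 footprint profile. Over the 12 Ribo-Seq libraries, log2 values of uc009jsd.1 and uc008rwe.2 had Pearson r = 0.65, those of uc009hcn.2 and uc009jsd.1 r = 0.53 and those of uc009hcn.2 and uc008rwe.2 r = 0.25. These are descriptions over libraries of 6 groups that share lines and scaling. Among transcripts at or above the median level, the profiles most like that of uc009hcn.2 were uc008ubh.2 (r = 0.849) and uc008vfg.1 (r = 0.843). For uc009jsd.1 they were uc008sib.1 (r = 0.960) and uc009txt.2 (r = 0.959), and for uc008rwe.2 they were uc007cdv.1 (r = 0.924) and uc008mbw.2 (r = 0.921).

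Pearson r does not measure whether differences between libraries are of like size. The RPL10A ratio of these 6 transcripts exceeded the RPS25 ratio by 0.17 to 0.67 and the RPL22 ratio by 0.21 to 0.67 on the log2 scale. For the members the values were 1.40 to 3.32 and 1.51 to 1.70. The members were named by these differences, so nothing is read from their larger values. The 6 were also sought only at or above the median level, whereas uc009hcn.2 and uc008rwe.2 averaged 8.11 and 5.31 RPKM.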

How the data were processed

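Per the file headers, the authors deposited RPKM values per transcript for each Ribo-Seq library. The RNA-seq files, which the authors headed RPM, were treated as a scaled signal because their columns sum to between 943664 and 1067210. Per the submitters' processing notes, cutadapt, Bowtie2 and, for the Rpl22 and RNA-seq libraries, STAR were used with mm10; versions and filters were not given in the sources used here. Whole counts were not recovered, so no count test was run.

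Values were taken as log2(value + 1) and fitted over all transcripts with limma 3.58.1 in R 4.3.3, with a variance trend, two-sided tests and Benjamini-Hochberg adjustment over the whole table: 4 libraries for each capture ratio, 12 for differences between lines, and 8 for the RNA-seq contrasts. The fits were also run on simulated data with independent noise in each library. That noise lacks the deviations shared by same-numbered RNA-seq libraries, so it does not check the p-values of these data. A transcript was called at an adjusted p below 0.05. The members, tests and alternatives were chosen with earlier results of these data known. Beside the members, the 2 transcripts with the highest Pearson r to each were named, among those at or above the median level. Same-numbered samples were not taken as pairs, because the labels do not say what a number stands for.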

Additional observations from a re-analysis of the deposited data

Results flagged for a closer look

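The RPS25 capture ratio of uc009hcn.2 was −1.64 on the log2 scale, with both capture libraries below both total libraries, whereas its RPL10A capture ratio was 1.68, with both capture libraries above both total libraries. Opposite directions in every library of both lines drew attention to it. The difference was not tested, because these ratios named the transcript. Its RPS25 capture libraries stood at 0.6 and 2.3 RPKM, and with a pseudocount of 5 in place of 1 the RPS25 ratio was −0.81.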

How the results depend on the processing

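Under every alternative run, the RPL10A ratios and the differences between lines kept their direction. With a pseudocount of 5 the RPL10A ratios were 1.20 (uc009hcn.2), 1.79 (uc009jsd.1) and 0.70 (uc008rwe.2), the RPS25 ratio of uc009hcn.2 was −0.81, the RPL10A minus RPS25 differences of uc009hcn.2 and uc008rwe.2 were 2.01 and 0.74, and the RPL10A minus RPL22 difference of uc008rwe.2 was 0.81. With 0.1, chosen after seeing the data, the RPL10A ratios of uc009hcn.2 and uc008rwe.2 were 1.86 and 1.73, and the differences of uc008rwe.2 were 1.79 and 1.90. A filter at a mean of 10 left out uc008rwe.2 throughout, and uc009hcn.2 in the Ribo-Seq fits other than that of the 3xFLAG-Rpl10a line.

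In the RNA-seq fits, uc008rwe.2 changed in the heavy pool by 0.56 with a pseudocount of 5, 0.78 with medians aligned and 0.91 in the 4-library fit, below the threshold each time. Its control heavy-against-light difference passed with equal totals (−0.87). The light-pool fall of uc009jsd.1 missed the threshold with equal totals (−0.89), without a trend (−0.94) and in the 4-library fit (−0.94), where uc009hcn.2 passed (−0.76). Counts over all transcripts moved too: toward heavy, 112 shifts with medians aligned; without a trend, 0 shifts in either direction, and 99 higher and 161 lower in the light pool; 356 higher in the light pool with equal totals; and in 4-library fits 1167 lower in the heavy and 445 lower in the light pool. The cause was not tested.

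The capture ratios were the same with a replicate block. In the RNA-seq fits with it, calls were added for uc008rwe.2 in heavy against light with control siRNA (−0.83, limma adjusted p = 0.000344) and Rpl10a siRNA (−0.81, adjusted p = 0.000483) and in the light pool (0.89, adjusted p = 0.00128), for uc009jsd.1 in heavy against light with Rpl10a siRNA (0.40, adjusted p = 0.0474) and for uc009hcn.2 in the light pool (−0.76, adjusted p = 0.00499), and no call of a member was lost. The block called 910 higher and 1002 lower in the light pool, and 1463 shifts toward heavy and 1057 toward light. Differences between replicates correlated across groups with r from 0.403 to 0.622, which is a hint from the data and not the design.

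Without single libraries, the RPS25 ratio ran from −2.16 to −1.12 for uc009hcn.2 and −0.21 to 0.11 for uc008rwe.2, and the RPL22 ratio from −0.64 to 0.61 and −0.36 to 0.041. Heavy against light ran from −1.08 to −0.57 (control) and −1.20 to −0.42 (Rpl10a siRNA) for uc008rwe.2, and from 0.037 to 0.77 (Rpl10a siRNA) for uc009jsd.1. Calls were gained for uc008rwe.2 with control siRNA without either Rpl10a siRNA heavy library (adjusted p = 0.0326 and 0.0338) and with Rpl10a siRNA without its first light (0.0499) or second heavy library (0.0205), for uc009jsd.1 with Rpl10a siRNA without its first light library (0.0148) and for the light-pool change of uc009hcn.2 without either Rpl10a siRNA heavy library (0.0312 and 0.0329). Heavy-pool changes ran from −0.77 to 0.10 (uc009hcn.2), −0.90 to −0.68 (uc009jsd.1) and 0.52 to 1.31 (uc008rwe.2), and light-pool changes from −0.86 to −0.67 (uc009hcn.2) and −1.31 to −0.58 (uc009jsd.1). Counts ran from 1053 to 2300 higher and 447 to 1958 lower in the heavy pool, 0 to 454 higher and 0 to 533 lower in the light pool, and 0 to 1201 and 0 to 869 for shifts toward heavy and light. Only without the second Rpl10a siRNA heavy library was any shift called.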

Other observations

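In the RNA-seq arm, the library numbered 2 held more of uc008rwe.2 than the library numbered 1 in all 4 groups, with 10.2 against 5.5 (Rpl10a siRNA, heavy), 17.3 against 11.2 (Rpl10a siRNA, light), 4.4 against 2.8 (control siRNA, heavy) and 8.1 against 6.1 (control siRNA, light; deposited RPM values). The same held for uc009hcn.2. For uc009jsd.1 it held in both control groups and was the other way round in both Rpl10a siRNA groups. Whether equal numbers mark a shared culture or day was not tested.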
